A study of Mus with 8 samples.

Results

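The genes described here are 10 genes of endotoxin sensing and NF-kappaB signalling in mouse liver: Lbp, Cd14, Tlr2, Tlr4, Myd88, Tifa, Nfkb1, Relb, Nfkbia and Tnfaip3. They were taken by symbol from the 54532 genes listed in the count table. All 10 were found, and 8 of them were among the 11729 genes that passed a filter on low counts and were tested. Tlr2 and Tlr4 did not pass it. The genes were chosen by function with results of this comparison already known, and Tifa was included for its difference between the groups. Their differences are therefore given as a description, with errors and intervals and without printed p-values. Whether each passed a threshold in the fit over all genes is stated as part of that description.

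Liver RNA was sequenced from mice given dextran sulfate sodium (DSS), which injures the lining of the colon and so causes colitis. All 8 libraries come from mice that received 2.5% DSS, which was stopped on day 6. The 4 libraries of the DSS group (numbers 15, 48, 49 and 50) are labelled with DSS alone, and the 4 of the diet-alcohol group (numbers 35, 45, 65 and 71) with DSS, a high-fat diet and alcohol. The comparison asks what diet and alcohol add to liver injury in colitis, and the effects of diet and of alcohol cannot be told apart. The sources used here give no strain, age, alcohol dose or duration of feeding, nor the feed of the mice behind the DSS libraries. The labels do not say whether each library is a separate mouse, so the errors measure the spread between these libraries, which may in part be technical.

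Endotoxin, the lipopolysaccharide (LPS) of gram-negative bacteria, reaches the liver from the gut in portal blood. LPS-binding protein, encoded by Lbp and secreted by hepatocytes, hands LPS to CD14, which passes it to the receptor TLR4 on macrophages and other cells, while TLR2 senses bacterial lipoproteins. Myd88 encodes the adaptor that couples these receptors, and the interleukin-1 receptor, to the ubiquitin ligase TRAF6. Tifa encodes an adaptor of a separate cytosolic route: the kinase ALPK1 binds ADP-heptose, a sugar made during bacterial LPS synthesis, and phosphorylates TIFA, which assembles into oligomers and recruits TRAF6. Both routes free NF-kappaB, dimers of subunits that include the product of Nfkb1, from inhibitors such as IkappaB-alpha, encoded by Nfkbia. Relb encodes another subunit of the family, which acts in the non-canonical branch. Nfkbia and Tnfaip3, which encodes a ubiquitin-editing enzyme that restrains the pathway, are themselves induced by NF-kappaB.

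Each library held 12502300 to 16967839 counts in all. Transcripts of the mitochondrial genome made up 55.8 to 79.1% of them in the DSS group and 30.2 to 73.0% in the diet-alcohol group (exact two-sided permutation test, p = 0.143, n = 4 each, smallest possible p 0.0286), which left 2722757 to 10947612 counts for nuclear genes. Diet-alcohol library 35 stood apart from the other 7: it had 784 genes at 1 to 9 counts against 4319 to 4987, and the correlation of its log2 CPM with each of them was 0.762 to 0.819, where the others reached 0.875 to 0.945 with one another. All 10 hepatocyte markers were detected in every library. Their summed level was 45420.4 to 70375.5 CPM (normalized counts, scaled to library size with TMM factors) in the DSS group and 30050.9 to 38820.3 CPM in the diet-alcohol group. That sum is weighted to the most abundant markers. None of the 10 had an adjusted p under 0.05 in edgeR's test, where 1.26% of all tested genes did. Of their log2 fold changes 2 were positive and 8 negative (median -0.41). The part of hepatocytes in the levels described below was not tested.

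Of the 8 tested genes, Tifa differed most between the groups. The gene (ENSMUSG00000046688) lies on chromosome 3 at 127789805 to 127832164 on the plus strand (GRCm38). Its level was 8.60, 5.68, 3.95 and 7.60 CPM in DSS libraries 15, 48, 49 and 50. It was 39.9, 27.2, 40.4 and 22.4 CPM in diet-alcohol libraries 35, 45, 65 and 71. Every diet-alcohol library lay above every DSS library. Libraries 35 and 65 were the highest of their group, and library 15 was the highest of the DSS group. The group means were 6.46 ± 2.06 and 32.5 ± 9.08 CPM (SD, n = 4 each), on 33 to 138 counts per DSS library and 366 to 712 per diet-alcohol library. The log2 fold change was 2.32 ± 0.30 (SE; edgeR quasi-likelihood fit), a 5.0-fold higher level with a 95% interval of 3.15 to 7.95. In bulk tissue, more cells of a type and more RNA per cell cannot be told apart.

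**Figure D1:**
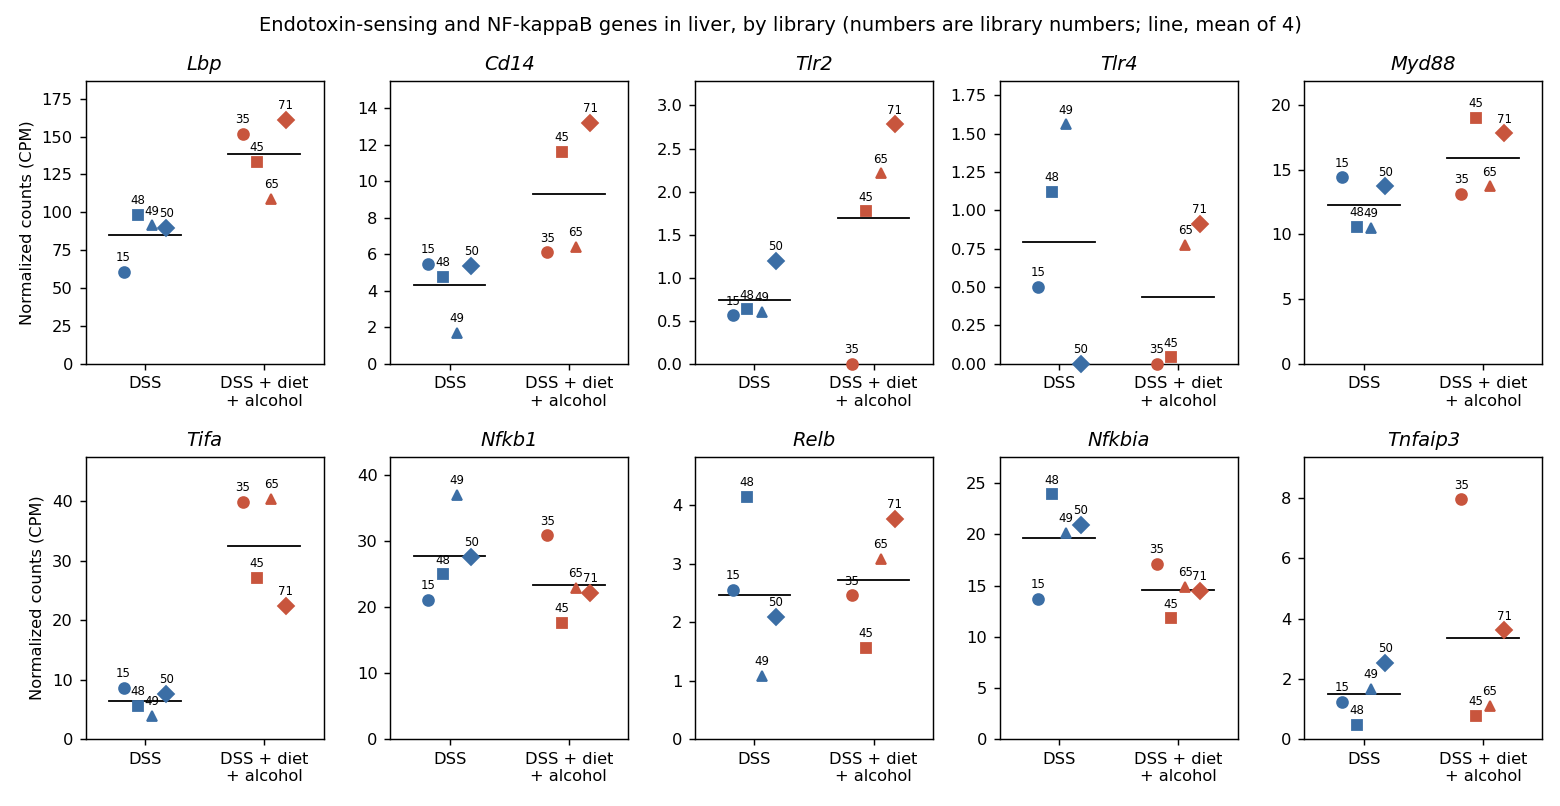
Normalized counts (CPM, linear axis from 0) of the 10 genes in each library, with 1 panel per gene, points numbered by library and a line at the mean of the 4 libraries of a group. For Tifa, Lbp and Cd14 all diet-alcohol points lie above all DSS points, whereas the groups overlap for the other 7 genes, and Tlr2 and Tlr4 are at 0 in library 35.

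Tifa was the only one of the 8 tested members among the genes called in the fit over all genes (adjusted p under 0.05 in edgeR's quasi-likelihood test). Of all 11729 tested genes, 0.588% were called higher in the diet-alcohol group and 0.674% were called lower. Tifa was the 75th of the 11729 in order of log2 fold change. None of the other 7 tested members was called, and by DESeq2 and by limma-voom none was called either. At an unadjusted p under 0.05 there were 2 of the 7 by edgeR, Lbp and Cd14, where 11.7% of all tested genes were. These counts describe genes chosen with the comparison in view, and nothing is read from them.

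The Tifa difference was present with each library left out. Its log2 fold change ran from 2.14 without DSS 49 to 2.49 without DSS 15, and was 2.20 ± 0.28 without diet-alcohol library 35. Fitted with the mitochondrial share of counts as a covariate, it was 2.50 ± 0.34. The authors' deposited table lists a log2 fold change of 2.32 for the gene. Its span in the count table overlaps that of Ap1ar, a coding gene on the opposite strand, over positions 127807007 to 127832164, and the strand setting of the counting is not given in the sources used here. In the RefSeq annotation of GRCm38 Tifa ends at 127798394, before that stretch. Ap1ar had 4.61 to 11.3 CPM in the DSS group and 6.52 to 11.1 CPM in the diet-alcohol group, a log2 fold change of 0.14 ± 0.32 with an adjusted p of 0.92 in edgeR.

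The LPS-capture genes were higher in the diet-alcohol group without passing the test over all genes. Lbp (chromosome 2, 158306493 to 158332852, plus strand, GRCm38) had 60.5, 98.3, 91.3 and 89.7 CPM in DSS libraries 15, 48, 49 and 50. It had 152, 133, 109 and 161 CPM in diet-alcohol libraries 35, 45, 65 and 71. The groups did not overlap, with library 15 the lowest of all 8 and library 71 the highest. Lbp had a log2 fold change of 0.71 ± 0.22, or 1.63-fold with a 95% interval of 1.16 to 2.30 that is not adjusted for the number of genes. It was 0.66 without library 35 and 0.57 with the mitochondrial share as a covariate.

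Cd14, the co-receptor carried by macrophages and also made by hepatocytes under inflammatory signals, had 5.49, 4.77, 1.68 and 5.36 CPM in DSS libraries 15, 48, 49 and 50. In diet-alcohol libraries 35, 45, 65 and 71 it had 6.10, 11.6, 6.41 and 13.2 CPM. The groups did not overlap, but libraries 35 and 65 were close to the upper DSS values and library 49 was low for its group. For Cd14 the log2 fold change was 1.11 ± 0.40 (2.15-fold, 95% interval 1.17 to 3.97). It was 0.84 without DSS 49, 0.68 with the mitochondrial share as a covariate and 1.27 without library 35. Counted over the 8 tested members, the diet-alcohol libraries all lay above the DSS libraries for 3 (Tifa, Lbp and Cd14) and all below for 0, beside 4.14% and 4.63% of all tested genes (8.77% in either direction). That count too follows from how the genes were chosen.

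The toll-like receptor genes were near the limit of detection. Tlr2 had 9, 9, 5 and 8 counts in DSS libraries 15, 48, 49 and 50, and 0, 43, 20 and 70 counts in diet-alcohol libraries 35, 45, 65 and 71. In CPM the 3 diet-alcohol libraries other than 35 stood at 1.77 to 2.78, above the DSS range of 0.561 to 1.19. A count of 0 in library 35 allows up to 0.168 CPM (3 counts, counting error only), in the library that also listed few genes at low counts. Without a filter on low counts the log2 fold change was 1.2 ± 0.88. In the fits with a library left out where Tlr2 passed the filter, it ran from 1.07 without DSS 15 to 1.64 ± 0.52 without library 35.

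Tlr4, the LPS receptor itself, had 8, 16, 13 and 0 counts in the DSS libraries in the same order, and 0, 1, 7 and 23 in the diet-alcohol libraries. The groups overlapped, at 0 to 1.56 CPM and 0 to 0.913 CPM, and a difference was not detectable at this depth (log2 fold change without a filter -0.91 ± 1.19). Its partner Ly96, which encodes the LPS-binding co-receptor of TLR4, had 8 to 32 counts in DSS and 12 to 46 in diet-alcohol libraries. The log2 fold change of 0.06 ± 0.63 had an adjusted p of 0.98 in edgeR.

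Macrophage markers were read beside these genes. All 12 Kupffer cell markers were detected in every library, with a summed level of 244.6 to 384.0 CPM in the DSS group and 401.6 to 715.7 CPM in the diet-alcohol group. Without Marco, a sum taken after seeing the data, the other 11 overlapped: 237.0, 370.4, 283.6 and 371.5 CPM in DSS libraries 15, 48, 49 and 50 and 305.1, 375.1, 644.3 and 298.6 CPM in diet-alcohol libraries 35, 45, 65 and 71. Of the 12 tested, with a median log2 fold change of 0.50, 1 was called (0.588% of all tested genes were called higher), the scavenger receptor gene Marco (log2 fold change 4.13 ± 0.64, edgeR adjusted p = 0.0089), whose call was lost without DSS 48, DSS 49 or library 35 (adjusted p up to 0.061). Fitting the mitochondrial share as a covariate also lost the call (3.33, edgeR adjusted p = 0.087), as did testing with no filter on low counts (0.10). Marco stood at 3.05 without library 71. The sum over all 12 markers was highest in library 65 (715.7 CPM, against 701.7 in library 71), where Lbp was the lowest of its group and Cd14 the second lowest. Marco alone had 403 CPM in library 71, where Cd14, Tlr2 and Lbp were highest. Summed markers of monocytes and macrophages, 8 of 8 detected, overlapped at 40.5 to 86.8 and 61.8 to 119.7 CPM, with Ly6c2, Itgam and Cx3cr1 at 0 in library 35 and Itgam at 0 in DSS 48. The part of these cells in the levels of Cd14, Tlr2 and Tlr4 was not tested.

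Myd88, the adaptor shared by most toll-like receptors, differed little. It had 14.4, 10.6, 10.5 and 13.7 CPM in DSS libraries 15, 48, 49 and 50, and 13.1, 19.0, 13.7 and 17.8 CPM in diet-alcohol libraries 35, 45, 65 and 71. Libraries 45 and 71 were above all DSS libraries and libraries 35 and 65 were within the DSS range. For Myd88 the log2 fold change was 0.37 ± 0.23, with a 95% interval of -0.13 to 0.87 that reaches from a 0.917-fold to a 1.82-fold level. Its span in the count table (chromosome 9, 119335934 to 119341411, minus strand, GRCm38) overlaps at 119339676 to 119341411 with Acaa1a on the plus strand, a peroxisomal thiolase gene counted at 115.9 to 247.8 CPM, and without the strand setting reads in that stretch cannot be assigned with certainty. In the RefSeq annotation of GRCm38 Myd88 ends at 119340018, inside that stretch. Acaa1a had a log2 fold change of 0.45 ± 0.27 with an adjusted p of 0.60 in edgeR. Like Myd88, Acaa1a was highest in DSS library 15 and diet-alcohol libraries 45 and 71 (231.6, 247.8 and 221.6 CPM). The part of Acaa1a reads in the Myd88 level was not tested.

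The NF-kappaB subunit genes did not separate the groups. Nfkb1 (chromosome 3, 135584655 to 135691547, minus strand) had 21.2, 25.0, 37.1 and 27.6 CPM in DSS libraries 15, 48, 49 and 50, and 30.9, 17.6, 22.9 and 22.2 CPM in diet-alcohol libraries 35, 45, 65 and 71. Only library 49 and library 35 exceeded 30 CPM. Its log2 fold change was -0.24 ± 0.25 (95% interval -0.78 to 0.30), -0.41 without library 35 and -0.08 without DSS 49. Relb (chromosome 7, 19606217 to 19629438, minus strand), which acts in the non-canonical branch, had 1.08 to 4.14 CPM in the DSS and 1.56 to 3.77 CPM in the diet-alcohol group. Its log2 fold change was 0.12 ± 0.49. It was -0.13 without DSS 49 and 0.49 without DSS 48, so its sign is not settled.

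Of the inhibitor genes, Nfkbia (chromosome 12, 55489410 to 55492647, minus strand) had 13.7, 23.9, 20.1 and 20.9 CPM in DSS libraries 15, 48, 49 and 50. It had 17.1, 11.8, 14.9 and 14.5 CPM in diet-alcohol libraries 35, 45, 65 and 71. Except for library 15, the DSS libraries were above all diet-alcohol libraries. For Nfkbia the log2 fold change was -0.43 ± 0.23 (95% interval -0.94 to 0.08), so a rise of more than 1.06-fold lies outside that interval. It was -0.58 without DSS 15 and -0.32 without DSS 48.

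Tnfaip3 (chromosome 10, 19000910 to 19015657, minus strand) rested on few counts: 20, 7, 14 and 17 in the DSS libraries and 142, 19, 10 and 91 in the diet-alcohol libraries. In CPM the DSS group ran from 0.491 to 2.53, and libraries 45 and 65 stood inside that range at 0.782 and 1.10. Libraries 35 and 71 stood above it at 7.95 and 3.61. The log2 fold change of 1.22 ± 0.76 (95% interval -0.45 to 2.88) was carried in large part by library 35, without which it was 0.39 ± 0.64.

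The levels of the 10 genes relative to each other were read from the deposited FPKM values, which are per kilobase of gene length. In the DSS group the order of mean levels was Lbp (17.2 FPKM), Nfkbia (11.9), Myd88 (4.68), Cd14 (2.70), Nfkb1 (2.25), Tifa (1.98), Relb (0.622), Tlr2 (0.242), Tnfaip3 (0.201) and Tlr4 (0.140). Cd14, Nfkb1 and Tifa were not separable there, with ranges of 1.04 to 3.46, 1.74 to 3.01 and 1.21 to 2.67 FPKM, and the ranges of Tlr2, Tnfaip3 and Tlr4 overlapped as well. In the diet-alcohol group Lbp was again the highest at 28.1 ± 4.38 FPKM, and Tifa was the second at 9.94 ± 2.82 FPKM (SD, n = 4). Tifa and Nfkbia then overlapped, at 6.80 to 12.5 and 7.19 to 10.3 FPKM, as did Myd88 (4.94 to 7.23) and Cd14 (3.77 to 8.17). Nfkb1 (1.90), Relb (0.686), Tlr2 (0.550), Tnfaip3 (0.453) and Tlr4 (0.0763) followed in the same order as in the DSS group.

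The route on which TIFA acts was examined at its kinase. Alpk1 is the coding gene next to Tifa on chromosome 3 in the RefSeq annotation of GRCm38, and the count table places it at 127670310 to 127780527 on the minus strand. It had 16, 4, 1 and 1 counts in DSS libraries 15, 48, 49 and 50, and 20, 52, 61 and 45 counts in diet-alcohol libraries 35, 45, 65 and 71. It therefore passed the filter on low counts largely through the diet-alcohol libraries. The CPM values were 0.998, 0.281, 0.120 and 0.149 against 1.12, 2.14, 6.74 and 1.79, without overlap but with library 35 close to DSS 15. For Alpk1 the log2 fold change was 2.76 ± 0.83 (95% interval 0.94 to 4.58) and did not pass the test (edgeR adjusted p = 0.17). With a library left out it ran from 2.0 without library 65 to 3.85 without DSS 15. The gene was called in 2 of 20 alternatives, by DESeq2 (adjusted p = 0.024) and without library 35 (edgeR adjusted p = 0.037). By limma-voom Alpk1 stood at 2.3 ± 1.26 (adjusted p = 0.53), and with the mitochondrial covariate at 2.98 ± 0.86 (edgeR adjusted p = 0.24). Traf6, the ligase on which both routes meet, stood at -0.14 ± 0.33 on the same scale, with an adjusted p of 0.92 in edgeR.

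Across all 8 libraries the 5 genes whose log2 CPM followed that of Tifa most closely, of 9076 genes searched, were Retnlg (Pearson r = 0.984), Fndc3b (0.979), S100a9 (0.977), S100a8 (0.977) and Dhdds (0.974). These values describe 2 groups that differ in Tifa, and any gene with a large and even difference scores high by this measure. Retnlg, S100a8 and S100a9 are neutrophil genes, S100a8 and S100a9 encoding the subunits of calprotectin. Retnlg had 4, 2, 1 and 2 counts in DSS libraries 15, 48, 49 and 50, so its log2 CPM there rests largely on the prior count. With group means of 0.202 and 3.94 CPM, it reached the mean of 2 CPM needed for the search only through the diet-alcohol group. S100a8 had 5.11, 1.12, 0.599 and 2.38 CPM in DSS libraries 15, 48, 49 and 50, the same order as Tifa, and 23.8, 14.7, 20.2 and 11.5 CPM in diet-alcohol libraries 35, 45, 65 and 71. For Tifa, S100a8 and S100a9 alike, libraries 35 and 65 were the upper pair of the diet-alcohol group and libraries 15 and 50 the upper pair of the DSS group. Both genes were picked for a high r over these same libraries, so a like order within the groups follows in part from the choice. Prtn3, a neutrophil gene not among the 5, had 2.46, 16.9, 19.2 and 6.15 CPM in diet-alcohol libraries 35, 45, 65 and 71, lowest in library 35. Over the same libraries the r with Tifa was 0.868 for Alpk1, 0.698 for Cd14, 0.670 for Lbp, 0.609 for Myd88, 0.361 for Tnfaip3, 0.269 for Relb, -0.425 for Nfkb1 and -0.640 for Nfkbia.

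**Figure D2:**
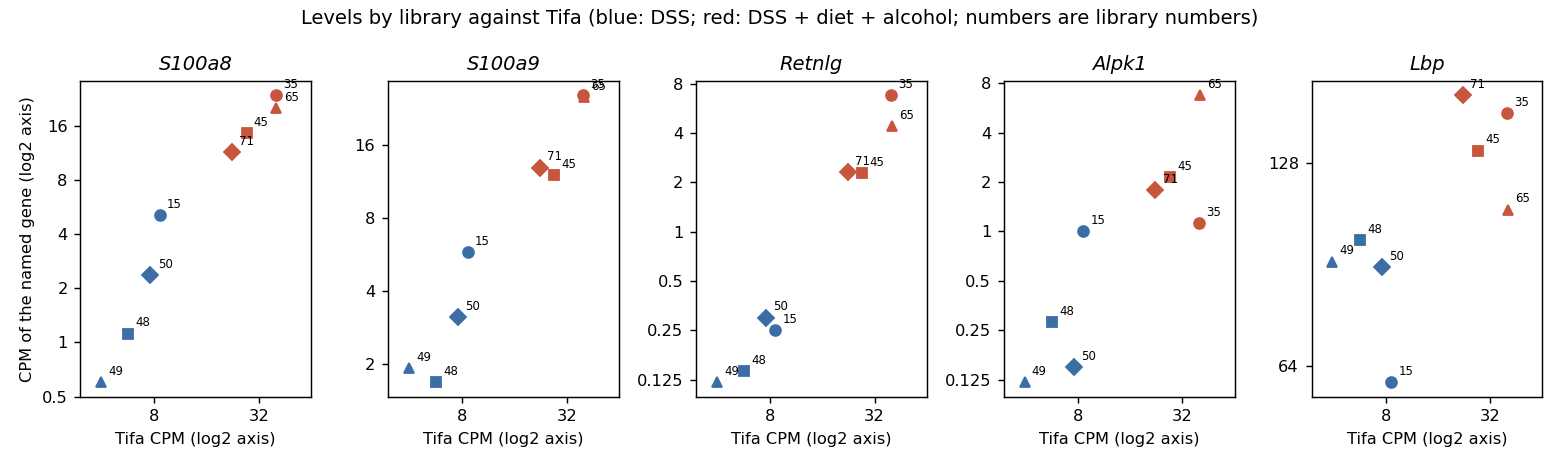
CPM of 5 genes (vertical, log2 axis) against CPM of Tifa (horizontal, log2 axis) in the 8 libraries, blue for DSS and red for diet and alcohol. S100a8, S100a9 and Retnlg, picked for their high r with Tifa, rise with it over the 8 points. Retnlg had only 1 to 4 counts per DSS library. For Lbp the library with the highest Tifa, 65, has the lowest value of its group.

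All 14 neutrophil markers had at least 1 count in some library, and their summed level was 4.19 to 16.5 CPM in the DSS group and 36.3 to 83.3 CPM in the diet-alcohol group. Without the 4 markers named next, a sum taken after seeing the data, the other 10 overlapped at 1.56 to 4.74 and 3.30 to 14.4 CPM. Of the 14, 9 did not pass the filter, and 4 of the 5 that did were called higher, beside 0.588% of all tested genes: Retnlg (log2 fold change 4.25 ± 0.63, edgeR adjusted p = 0.0076), S100a9 (2.56 ± 0.44, 0.015), Prtn3 (4.71 ± 0.87, 0.022) and S100a8 (2.88 ± 0.54, 0.024). Retnlg had no DSS library with 10 counts and Prtn3 had 2, so they passed the filter through their diet-alcohol counts. The calls of S100a8 and Prtn3 were lost without DSS 48, 49 or 50 or library 45 or 65, and that of Prtn3 also without DSS 15 (edgeR adjusted p up to 0.11 and 0.082). The call of S100a9 was lost without DSS 48, 49 or 50 (up to 0.07). By limma-voom the calls of Retnlg, Prtn3 and S100a8 were lost (adjusted p = 0.33, 0.52 and 0.051), and with no filter on low counts that of Prtn3 (0.15), which was called in 10 of 20 alternatives. Without DSS 15 S100a8 stood at 3.71. With the mitochondrial covariate S100a8, S100a9 and Prtn3 had adjusted p of 0.091, 0.052 and 0.074. In library 35, high for Tifa, 6 of the 14 markers were detected, with Ly6g, Mpo, Elane, Cxcr2, Csf3r, Ngp, Ltf and Camp at 0, and 6 were detected in DSS 49 and in DSS 50 as well. In the other 5 libraries 12 or 13 were detected, with Ly6g also at 0 in DSS 48 and Elane in library 65. The part of neutrophils in the Tifa level was not tested.

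The wider pathway was read from 119 further genes grouped by role, of which 94 were tested. Lists were drawn up with earlier results known, among them the differences in Lcn2 and Cxcl1. In all, 2 of the 94 were called higher and 0 lower (edgeR), which is 2.13% beside 1.26% of all tested genes, and their median log2 fold change was 0.30 beside -0.01 over all genes. At an unadjusted p under 0.05 there were 15 (16.0%, beside 11.7% of all tested genes). DESeq2 called 6 higher, and 199 over all genes. The count of calls was 1 without DSS 48, 49 or 50 and 6 without library 35.

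Among microbial sensors, none of 18 tested of 24 listed was called (median log2 fold change 0.46, with 2 or 11.1% at an unadjusted p under 0.05, and 1, Alpk1, by DESeq2). Nod1, a cytosolic sensor of bacterial peptidoglycan, stood at 0.81 ± 0.35 (edgeR adjusted p = 0.40). Cd36, a scavenger receptor and fatty acid transporter that assists TLR2, stood at 0.86 ± 0.46, or 0.44 without library 35. Hsp90b1, the endoplasmic reticulum chaperone that folds toll-like receptors, stood at 0.49 ± 0.28, or 0.28 without library 35. Bpi, a homologue of Lbp that neutralizes LPS, had no count in any library.

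Among adaptors and kinases, none of 34 tested of 37 listed was called (median 0.09, with 2 or 5.88% at an unadjusted p under 0.05, and 0 by DESeq2). Tirap, which bridges TLR2 and TLR4 to Myd88, had 3.43 to 6.23 CPM in the DSS group and 11.2, 13.5, 12.8 and 5.79 CPM in diet-alcohol libraries 35, 45, 65 and 71. Only library 71 fell inside the DSS range, and the log2 fold change was 1.15 ± 0.32 (edgeR adjusted p = 0.14). Ikbke, an IkappaB kinase-related gene, stood at 1.11 ± 0.39 (edgeR adjusted p = 0.26; 1.32 and 0.043 without library 35, 0.70 without library 65). Map3k8, a kinase downstream of toll-like receptors, stood at 1.13 ± 0.55. Ikbkb, the main kinase of Nfkbia's product, differed by 0.38 ± 0.19 without overlap between the groups, from 14.2 to 16.8 CPM in DSS and from 18.1 to 22.0 CPM in diet-alcohol libraries (edgeR adjusted p = 0.48).

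The remaining NF-kappaB subunit genes were not called by edgeR either (0 of 3, with 0 at an unadjusted p under 0.05 and 0 by DESeq2). Rela had a log2 fold change of -0.39 ± 0.24, Rel of -0.53 ± 0.60 (-1.08 without library 71) and Nfkb2 of 0.30 ± 0.35. With Nfkb1 and Relb, all 5 subunit genes of the family were tested and 0 were called, by edgeR or by DESeq2.

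**Figure D3:**
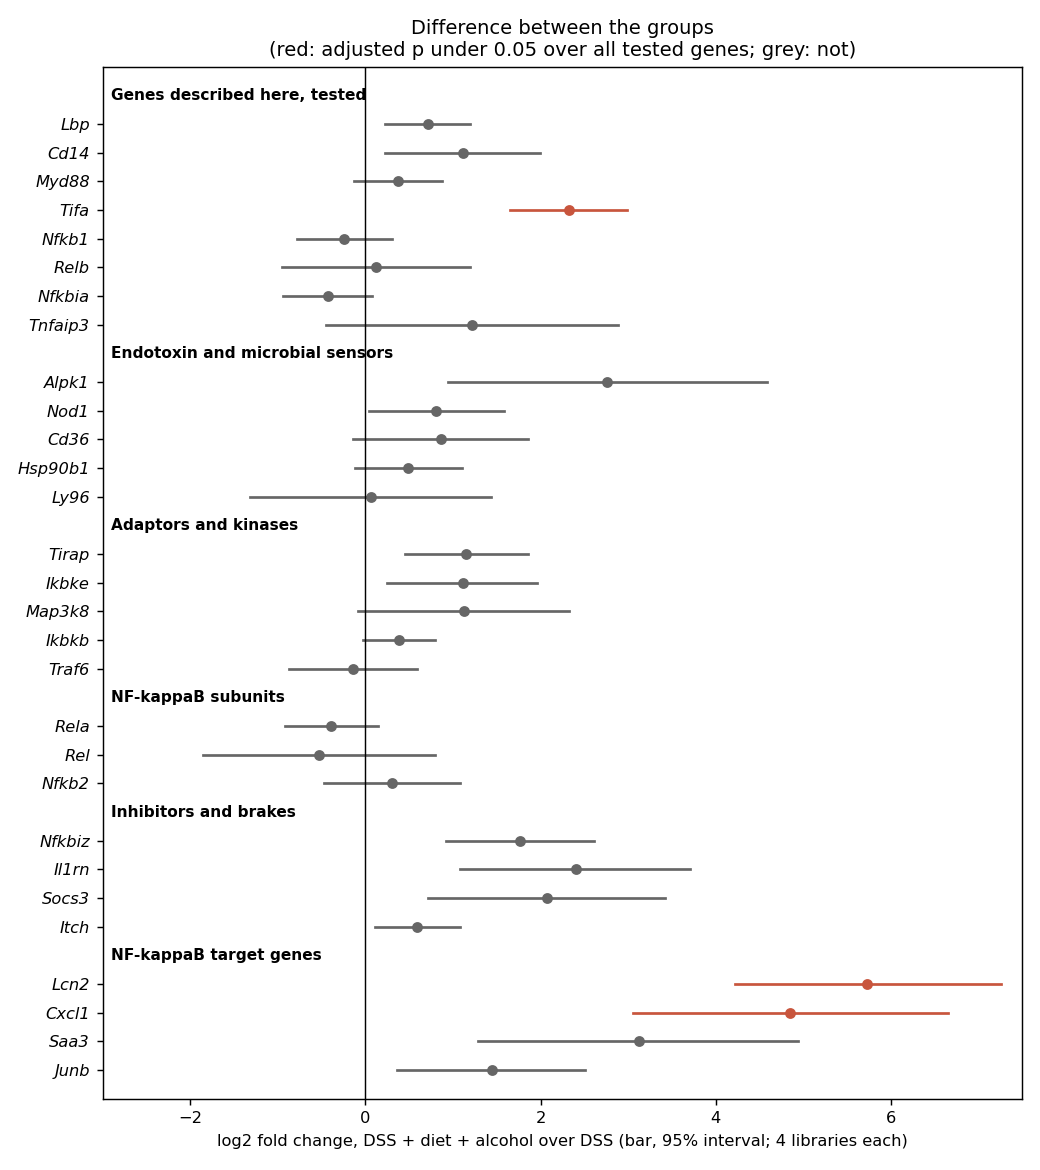
Log2 fold change (diet-alcohol over DSS, 4 libraries each) with its 95% interval for the 8 tested genes and for the named genes of the wider pathway, grouped by role. Red marks genes with an edgeR adjusted p under 0.05 over all genes, which are Tifa, Lcn2 and Cxcl1, and the subunit genes lie on both sides of 0.

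The list of inhibitors and brakes held the uncalled pathway genes nearest to the threshold, Nfkbiz and Il1rn. As given below, Nfkbiz promotes some NF-kappaB targets and Il1rn acts at the interleukin-1 receptor, so their values do not stand for NF-kappaB inhibitors as a class. None of 19 tested of 25 listed was called by edgeR (median 0.45), and 3 were called by DESeq2. At an unadjusted p under 0.05 in edgeR there were 6 (31.6%, beside 11.7% of all tested genes), 5 higher and 1 lower. The lower one, Dusp1, named after its values were seen, encodes a phosphatase that inactivates MAP kinases. It had 8.29, 8.35, 5.51 and 6.26 CPM in DSS libraries 15, 48, 49 and 50 and 1.34, 5.35, 3.98 and 4.68 CPM in diet-alcohol libraries 35, 45, 65 and 71. Of the 94 tested pathway genes, only Dusp1 had every diet-alcohol library below every DSS library, where 4.63% of all tested genes did. For 9 of the 94 the diet-alcohol libraries were all above, beside 4.14% of all tested genes. Dusp1 stood at -0.89 ± 0.40 on the log2 scale (edgeR adjusted p = 0.42). Nfkbiz, an atypical nuclear IkappaB that promotes a subset of NF-kappaB targets, had 2.56, 1.54, 1.92 and 1.64 CPM in DSS libraries 15, 48, 49 and 50 and 10, 4.16, 4.64 and 7.46 CPM in diet-alcohol libraries 35, 45, 65 and 71. The groups did not overlap, and Nfkbiz stood at 1.77 ± 0.38 on the log2 scale (edgeR adjusted p = 0.053). Nfkbiz was called in 3 of 20 alternatives. These were DESeq2 (adjusted p = 0.0045), no filter on low counts (edgeR adjusted p = 0.015) and the fit without library 35 (1.49, edgeR adjusted p = 0.042). By limma-voom its adjusted p was 0.20, and with the mitochondrial covariate it stood at 1.51 (edgeR adjusted p = 0.26).

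Il1rn, the secreted antagonist of the interleukin-1 receptor, had 0.479 to 5.05 CPM in the DSS group and 31.3, 25.1, 9.50 and 8.73 CPM in diet-alcohol libraries 35, 45, 65 and 71 (log2 fold change 2.40 ± 0.60, edgeR adjusted p = 0.092). Il1rn was called in 1 of 20 alternatives, by DESeq2 (adjusted p = 0.0018). Its edgeR adjusted p was 0.17 without library 35 (2.03 ± 0.62), 0.35 with no filter on low counts and 0.40 with the mitochondrial covariate. Socs3, which restrains interleukin-6 signalling, stood at 2.07 ± 0.62 (edgeR adjusted p = 0.17). It was called in 2 of 20 alternatives, by DESeq2 (adjusted p = 0.016) and, at 2.98, without DSS 15 (edgeR adjusted p = 0.037). Library 15 had 9.23 CPM where the other DSS libraries had 1.64 to 2.38. With no filter on low counts the edgeR adjusted p of Socs3 was 0.48. Itch, a ubiquitin ligase that works with the product of Tnfaip3, stood at 0.59 ± 0.22 (edgeR adjusted p = 0.29).

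Of NF-kappaB target genes, 2 of 20 tested of 30 listed were called higher and 0 lower by edgeR, where 0.588% and 0.674% of all tested genes were. At an unadjusted p under 0.05 in edgeR there were 5 (25.0%, beside 11.7% of all tested genes). Lcn2, which encodes an iron-scavenging protein, stood at 18.9 ± 16.5 CPM in the DSS group and 1013 ± 569.6 CPM in the diet-alcohol group. This is a log2 fold change of 5.73 ± 0.69 with an adjusted p of 0.0027 in edgeR, and the gene was called in each fit that left out a library, at 6.56 without DSS 15. Cxcl1, a neutrophil attractant, had 0.240 to 0.631 CPM in the DSS group and 4.53, 5.76, 35.1 and 5.04 CPM in diet-alcohol libraries 35, 45, 65 and 71 (log2 fold change 4.85 ± 0.82, edgeR adjusted p = 0.014). It had no DSS library with 10 counts and passed the filter through the diet-alcohol group. Its call was lost without DSS 15, 48, 49 or 50 (adjusted p up to 0.071), by limma-voom (0.46), with no filter on low counts (0.067) and on log2(FPKM + 1) (0.054). Without library 65 Cxcl1 stood at 3.56.

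Saa3, a serum amyloid A gene that macrophages also express, stood at 3.12 ± 0.83 (edgeR adjusted p = 0.12), or 2.1 without library 71 and 1.38 with the mitochondrial covariate, and Junb, a subunit of the factor AP-1, at 1.44 ± 0.49 (edgeR adjusted p = 0.24; 1.75 and 0.01 without library 35). Reads of similar Saa genes may have been divided between them in the counting, which makes the Saa3 value uncertain. Tnf, a classical product of TLR4 signalling, had 8, 1, 0 and 0 counts in the DSS libraries and 0, 2, 1 and 13 in the diet-alcohol libraries and was not tested. Il6 had 2 counts in all, Ccl2 had 22, and Ptgs2 and Ccl20 had none, so 10 of the 30 target genes were too scarce to compare.

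**Figure D4:**
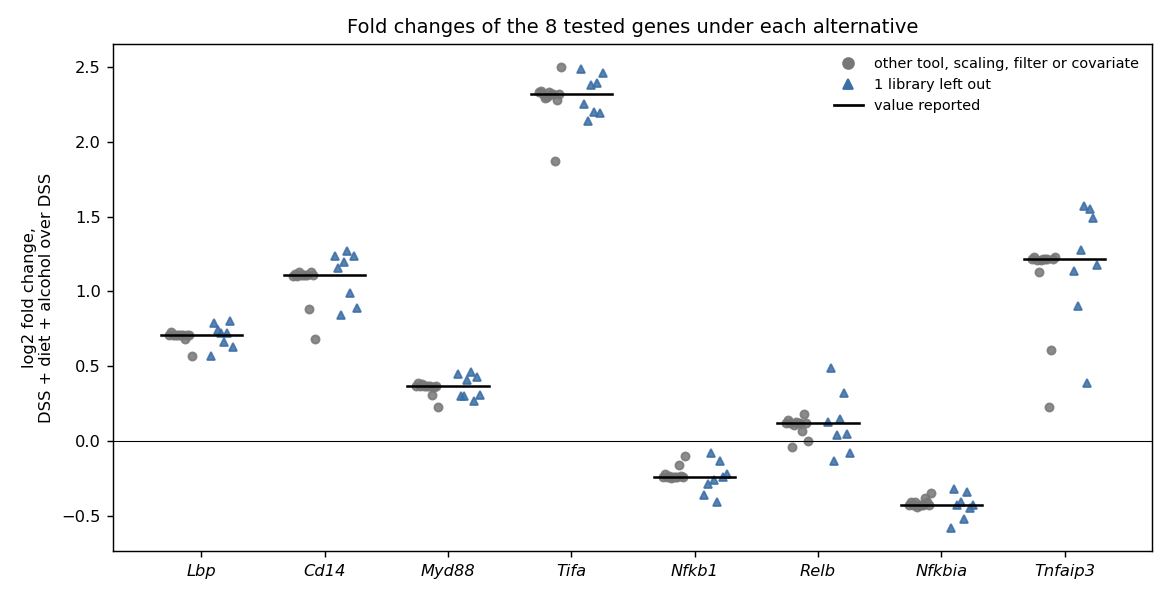
Log2 fold changes of the 8 tested genes as reported (black lines), under 12 other tools, scalings, filters or covariates (grey circles) and with each of the 8 libraries left out (blue triangles). Tifa stays between 1.87 and 2.50, Relb crosses 0, and Tnfaip3 ranges from 0.23 to 1.57.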

How the data were processed

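The authors deposited raw counts per gene for 8 liver libraries, with FPKM values, per the file headers. The deposited log2 fold changes, p-values and the mean signal of each group are the authors' own. Only the log2 value of Tifa is printed. The submitters' processing notes name GRCm38 and mm10, while the sources used here name no aligner, counter or strand setting. FPKM equalled counts per gene length divided by 1 constant per library.

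Of 54532 genes, 11729 passed filterByExpr and were tested with edgeR 4.0.16 (TMM, robust quasi-likelihood F test, R 4.3.3, Benjamini-Hochberg threshold 0.05). CPM values use TMM library sizes, and log2 CPM adds a prior count of 2. Intervals are 95% from the fit's moderated degrees of freedom. Total counts were 12502300 to 16967839, and the limit for a count of 0 (3 counts) covers counting error only. The test was tried on simulated data, where it recovered 6 of 64 changes of 2-fold (9.38%), 36 of 63 of 4-fold (57.1%) and 51 of 63 of 8-fold (81%). Of 98 calls there, 5 were false. A gene that was not called is therefore not shown to be unchanged. No paired analysis was possible because the groups share no library number. DESeq2 1.42.0 and limma 3.58.1 were among the alternatives.

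The genes, the pathway and marker lists, the alternatives and the naming rule were chosen with earlier results of these data known. The rule names all 10 genes, up to 4 per pathway list with the smallest p, Ly96, Alpk1, Traf6, Rela, Nfkb2 and Tnf, markers past the threshold or at 0, and the 5 genes most like Tifa with a mean of at least 2 CPM, predicted genes and pseudogenes left out. Ap1ar, Acaa1a, Dusp1, Bpi, Il6, Ccl2, Ptgs2 and Ccl20 were named after their values were seen. Marker lists of endothelial, stellate, bile duct, lymphoid and erythroid cells are in the closing section.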

Additional observations from a re-analysis of the deposited data

Results flagged for a closer look

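Among 64 groups of 4 libraries examined (the 10 genes and the named pathway genes, in each group), 7 held a library set far apart from the other 3, where the gap to the nearest other library, as a share of the group's range, exceeded Dixon's 95% critical value. Chance flags about 1 in 20 such groups. Of the 10 genes, Tlr2 was at 1.19 CPM in DSS library 50 against 0.561 to 0.631 CPM in the other DSS libraries, on 8 counts. DSS library 15 was the high one for Socs3 (9.23 CPM against 1.64 to 2.38), Lcn2 (43.5 against 9.19 to 12.4), Saa3 (18.6 against 4.31 to 4.77) and Tnf (0.499 against 0 to 0.0701). In the diet-alcohol group Cxcl1 was at 35.1 CPM in library 65 against 4.53 to 5.76, and Traf6 at 3.53 CPM in library 35 against 6.71 to 7.18.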

How the results depend on the processing

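Tifa was called higher and no other member was called in all 20 alternatives run, which were other normalizations, tools, filters, a threshold of 0.01, log2 FPKM, the mitochondrial genes left out, the mitochondrial share as a covariate and each library left out. Of the 8 tested members, 7 kept the sign of their fold change in all 20, and Relb was below 0 in 3 when rounded to 2 decimals. The threshold of 0.01 reuses the reported fit, so no sign could change there. Over all genes, 69 were called higher and 79 lower. The counts were 199 and 242 with DESeq2, 146 and 174 with no filter on low counts, 29 and 32 at 0.01, and 28 and 27 with the mitochondrial covariate. With 1 library left out they ran from 26 to 142 and from 32 to 166, the lowest without DSS 48 and the highest without library 35. Of pathway genes, 2 were called higher, against 6 with DESeq2, 1 with limma-voom, 1 at 0.01 and 1 with log2(FPKM + 1), and 1 to 6 with 1 library left out. The causes were not tested. With no filter on low counts the count of pathway genes was 2 again, but Nfkbiz took the place of Cxcl1. DESeq2 gave Cxcl1 no adjusted p. Low counts limit Tlr2, Tlr4, Tnfaip3 and Alpk1. No paired analysis was possible because the groups share no library number.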

Other observations

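Cell type markers outside the macrophage and neutrophil lists gave these summed levels. Sinusoidal endothelial markers, 8 of 8 detected in every library, had 79.1 to 180.0 CPM in the DSS group and 51.0 to 109.5 CPM in the diet-alcohol group, and their part in the results was not tested. Stellate cell markers overlapped at 115.2 to 303.2 and 104.0 to 356.4 CPM, and cholangiocyte markers at 12.9 to 25.2 and 9.92 to 60.5 CPM, with Krt7 and Epcam at 0 in library 35. B and plasma cell markers were scarce, at 1.75 to 3.44 and 0.635 to 5.85 CPM, with Jchain the only one of 6 above 0 in library 35. T and NK cell markers were as scarce, at 0.839 to 3.87 and 0.714 to 2.54 CPM. Erythroid markers ran from 174.1 to 2242.7 CPM in the DSS group, the highest in library 15, and from 396.3 to 807.6 CPM in the diet-alcohol group.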
